A study of Homo sapiens with 26 samples.

Results

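The genes described here are 10 secreted factors and surface receptors, grouped under the heading of signals and markers of dedifferentiation. Whether each gene marks loss of the differentiated melanocytic state in these cells was not tested. The genes are the secreted factors Lif, Vegfa, Gdf15, Serpine2, Igfbp3 and Timp1, and the surface proteins Nrp1, Ngfr, Axl and Sema6a. They are 10 of the 55353 gene rows of the input count tables. They were selected partly on the difference of their counts between salubrinal and control input, so their input values are given as a description, with no test. The cells were SK-MEL-28, an established human melanoma line. The 13 salubrinal samples came from cells kept with the compound for 72 h, and the 13 control samples from cells without it. Salubrinal blocks the dephosphorylation of eIF2α and so keeps the integrated stress response on. All cells, control included, received cycloheximide at 100 µg/mL for 12 min before lysis, and lysates were run on 5 to 20% sucrose gradients. Each treatment had 1 input library and 3 files each for polysome, 80S, 60S and 40S fractions. The titles give SK-MEL-28 for every sample, while the cell line field holds a differently numbered name in each of the 26.

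In the integrated stress response, phosphorylated eIF2α lowers general translation while the transcription factor ATF4 is made and switches on stress genes, several of which encode secreted proteins. Melanoma cells can move between a pigmented state, governed by MITF, and neural crest-like or undifferentiated states, in which NGFR and AXL are commonly used surface markers. Secreted factors such as VEGFA and LIF act on neighbouring cells through their own receptors.

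The input libraries held 145107865 salubrinal and 203322430 control reads in their tables, of which 10245548 and 12068784 were on gene rows. A single abundant row, CT010467.1, made up 12.8% of these in salubrinal input and 56.7% in control input, and mt-Rnr2 made up 17.8% and 8.85%. The gene symbols of the input tables are spelled in the mouse manner, and 30621 of the 55353 rows carry mouse names of the Gm or Rik kind. Their reference is not stated by the sources at hand, and the submitters' processing notes name hg19. Whether reads of these human cells were counted on mouse gene models was not tested, and this bears on every input level. No gene lengths are used for these rows, so a higher CPM on one row than on another does not rank the genes by expression. The part of the reference in rows at or near 0 was not tested. Of the 12 melanocytic markers, 10 were measured, 7 of them at least 2-fold lower with salubrinal, and the summed level of all 12 was 1407 CPM (the usual library-size-scaled count, here with TMM factors) in salubrinal input and 2907 CPM in control input. Mlana stood at 0 in both libraries and Tyrp1 had 0 counts in salubrinal and 5 in control input. Markers of other cell types were low in both: summed levels were 4.37 and 6.77 CPM for 6 fibroblast genes, 1.06 and 1.49 CPM for 5 endothelial genes, 4.58 and 5.74 CPM for 6 immune genes and 4.65 and 3.33 CPM for 5 keratinocyte genes, salubrinal input first in each pair. The stress genes Atf4, Ddit3 and Asns had log2 ratios of 1.82, 2.14 and 3.20. In bulk RNA, fewer cells of a type and less RNA per cell cannot be told apart.

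Of the 10 genes, 8 had at least 50 counts over both input libraries. Among them, 7 were at least 2-fold higher in salubrinal input, where 2.75% of the 10614 rows with that many counts were, and 1 was at least 2-fold lower, where 3.8% were. Since the choice of the genes used this contrast, nothing is read from these counts or from the median that follows. Their median log2 ratio was 1.80, against 0.02 over all rows. The intervals below are exact 95% intervals that cover counting error only, and with 1 library per treatment the differences have no replicate check.

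**Figure D1:**
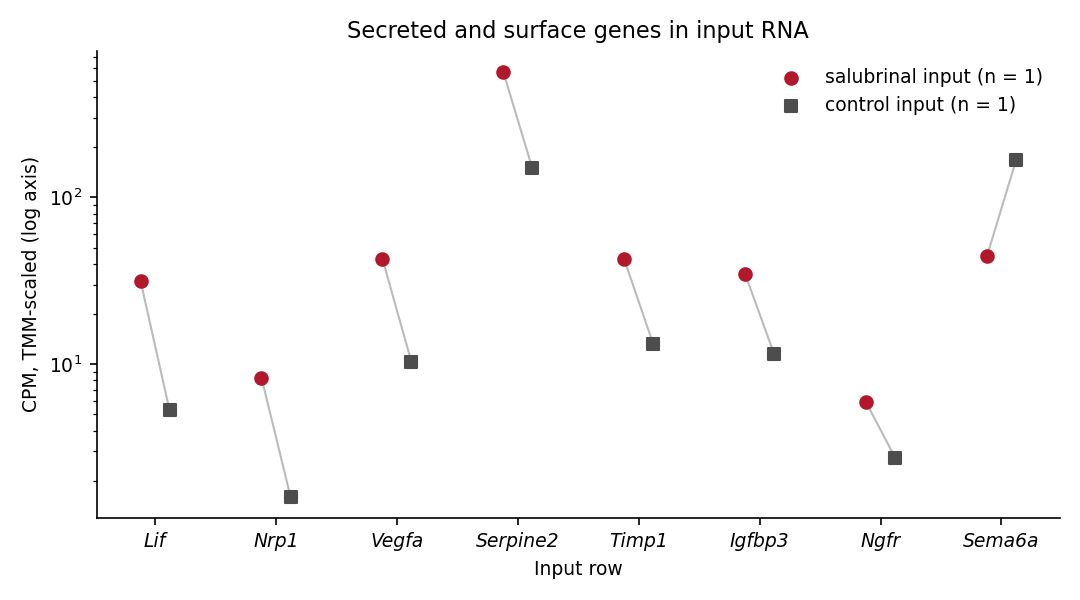
Level of the 8 measured genes in salubrinal input (circles) and control input (squares), 1 library each, in TMM-scaled CPM on a log axis. Serpine2 was at 566 CPM with salubrinal and 149.6 CPM in control, and Sema6a is the gene whose square lies above its circle.

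Lif is a cytokine of the interleukin-6 family that signals through LIFR and gp130 to STAT3. It had 448 counts in salubrinal input and 46 in control input, or 31.6 and 5.28 CPM. Its log2 ratio was 2.54 (2.14 to 3.05), the 6th highest of the 10614 rows. Of 19 other genes of the LIF pathway 8 were measured and 0 of them were 2-fold different in either direction, with a median of 0.00. The shared receptor chain Il6st had a ratio of 0.72 and Jak1 0.27, and the lowest were Tyk2 at -0.85 and the feedback inhibitor Socs3 at -0.50. Lifr itself had 33 and 14 counts, too few to count as measured.

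Vegfa, the main growth factor of blood vessels, had 610 counts in salubrinal and 90 in control input, or 43.0 and 10.3 CPM. Its log2 ratio was 2.04 (1.73 to 2.39), the 27th highest. Nrp1, a co-receptor for VEGFA and for class 3 semaphorins, had 118 and 14 counts, or 8.31 and 1.61 CPM. Its ratio of 2.25 had a wide interval, 1.57 to 3.29, with 14 counts in control. Sema6a, a transmembrane semaphorin that binds plexins, differed the other way: 631 counts in salubrinal and 1453 in control input, or 44.4 and 166.8 CPM, a log2 ratio of -1.90 (-2.05 to -1.77). This put it 31st from the lowest. In the wider list of VEGF, neuropilin, plexin and semaphorin genes, 17 of 32 were measured, of which 0 passed 2-fold upward and 4 passed it downward, with a median of -0.59. Vegfb, a sister ligand of Vegfa, had a ratio of -1.31 and the class 3 ligand Sema3a -1.14, while the highest were Sema3b at 1.00 and Plxnb3 at 0.21. Sema3b lay just under the 2-fold line. The VEGFA receptor Kdr had 6 and 5 counts and Flt1 had 0 in both.

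Serpine2, also called protease nexin-1, is a secreted inhibitor of thrombin, urokinase and other serine proteases. It had 8035 counts in salubrinal and 1303 in control input, and the log2 ratio of 1.92 (1.84 to 2.01) has the narrowest interval of the 8. Timp1, an inhibitor of matrix metalloproteinases, had 605 and 115 counts, or 42.6 and 13.2 CPM, and a ratio of 1.68 (1.40 to 1.99). Among 23 other proteases and inhibitors, 13 were measured, 0 were at least 2-fold higher and 1 was lower, Mmp17 at -1.26. Timp2 was at -0.49, and the highest were Mmp16 at 0.59 and Adam9 at 0.50. Igfbp3, a carrier that binds insulin-like growth factors outside the cell, had 494 and 100 counts, or 34.8 and 11.5 CPM, and a ratio of 1.59 (1.29 to 1.92). Of 18 genes of the insulin-like growth factor axis 8 were measured and 0 were 2-fold different, from Igfbp2 at 0.24 and Igfbp7 at 0.17 to Igf1r and Igf2r, both at -0.47.

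Promoter sequence is shown for these 3 secreted inhibitors and carriers, the only measured genes with promoter sequence at hand. Windows of 250 bases before a gene start, from RefSeq on GRCh38.p14, were found for 5 of the 10 genes, 7 windows in all. Each was searched on both strands for the ATF4-CHOP core TGATGNAA, the AP-1 site TGANTCA, the E-box CACATG, a second E-box form that is its own reverse complement, CACGTG, and as a promoter element common to many genes the GC box GGGCGG; none of these matches overlapped in the windows printed. Capitals mark matches, and each sequence runs 5′ to 3′ on the strand of the gene. The windows lie at chr2:224031479-224031728 (minus strand, the window of an alternative start), chr7:45921273-45921522 (minus strand) and chrX:47582186-47582435 (plus strand).
SERPINE2: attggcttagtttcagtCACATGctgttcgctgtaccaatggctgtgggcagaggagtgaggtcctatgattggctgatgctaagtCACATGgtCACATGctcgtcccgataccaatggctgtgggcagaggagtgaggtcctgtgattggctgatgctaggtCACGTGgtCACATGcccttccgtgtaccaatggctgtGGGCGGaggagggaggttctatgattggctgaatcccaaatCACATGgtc
IGFBP3: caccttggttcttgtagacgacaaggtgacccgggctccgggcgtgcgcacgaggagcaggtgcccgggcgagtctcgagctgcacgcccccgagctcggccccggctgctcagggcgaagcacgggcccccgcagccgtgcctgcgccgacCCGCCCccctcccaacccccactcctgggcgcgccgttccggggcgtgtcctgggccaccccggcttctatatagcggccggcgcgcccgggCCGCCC
TIMP1: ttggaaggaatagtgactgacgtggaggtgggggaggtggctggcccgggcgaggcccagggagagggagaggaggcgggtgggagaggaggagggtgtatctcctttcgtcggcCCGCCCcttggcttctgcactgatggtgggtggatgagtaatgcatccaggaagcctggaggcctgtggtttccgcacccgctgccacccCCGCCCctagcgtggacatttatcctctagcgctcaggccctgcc
SERPINE2 has a second window, at chr2:224038641-224038890 (minus strand), with 0 matches to either E-box and 2 GC boxes. The SERPINE2 window printed held 5 matches to CACATG and 1 match to the palindromic E-box. This window repeats a longer stretch of bases, with matches to CACATG beside its copies, so these matches are not separate occurrences. Of all 35116 windows, 4 held at least 5 matches to CACATG. This form was present in 9.42% of all windows and in 2 of the 7. The palindromic form was present in 6.34% and in 1 of the 7. The IGFBP3 and TIMP1 windows held 2 GC boxes each; 6 of the 7 windows and 42.6% of all windows held a GC box. The ATF4-CHOP core, present in 3.14% of all windows, and the AP-1 site, present in 6.57%, were found in 0 of the 7.

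Ngfr, the low-affinity neurotrophin receptor and a neural crest marker, had 84 counts in salubrinal and 24 in control input, or 5.92 and 2.76 CPM. Its log2 ratio of 1.06 had an interval of 0.43 to 1.82, which reaches below 2-fold. Of 15 neurotrophin pathway genes 6 were measured, 0 were at least 2-fold higher and 1 was lower, Sorl1 at -1.14. Arhgdia was at -0.75, and Sorcs1 at 0.69 and Traf6 at 0.34 were the highest. Axl, the receptor kinase for GAS6, had 0 counts in salubrinal and 2 in control input, so no ratio is given; in the fraction files, which use another gene table, AXL had the most counts of the 10 genes. Its relatives Mertk and Tyro3 were at -0.80 and -0.48. The collagen receptor Ddr2, at 102 and 16 counts, had a ratio of 1.87. It was the 1 of 8 measured genes in the list of receptor kinases and their ligands at least 2-fold higher. Pros1, in the same list and a ligand of Mertk and Tyro3, was at 0.16. Gdf15, a stress-induced cytokine of the TGF-β superfamily, had 0 counts in both inputs, where 3 counts would be 0.211 and 0.344 CPM; this bounds the counts on that row of a table whose reference is unknown, not the expression of the gene. Its superfamily list had 18 of 26 genes measured and 0 that were 2-fold different, from Acvr1 at 0.59 and Smad7 at 0.51 to Gdf11 at -0.60 and Acvr2b at -0.86. Among 21 other surface and secreted genes of undifferentiated melanoma, 7 were measured and 1 was at least 2-fold higher, the integrin Itga3 at 1.41. Thbs1 was at 0.97, Tnc at -0.40 and L1cam at -0.71.

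**Figure D2:**
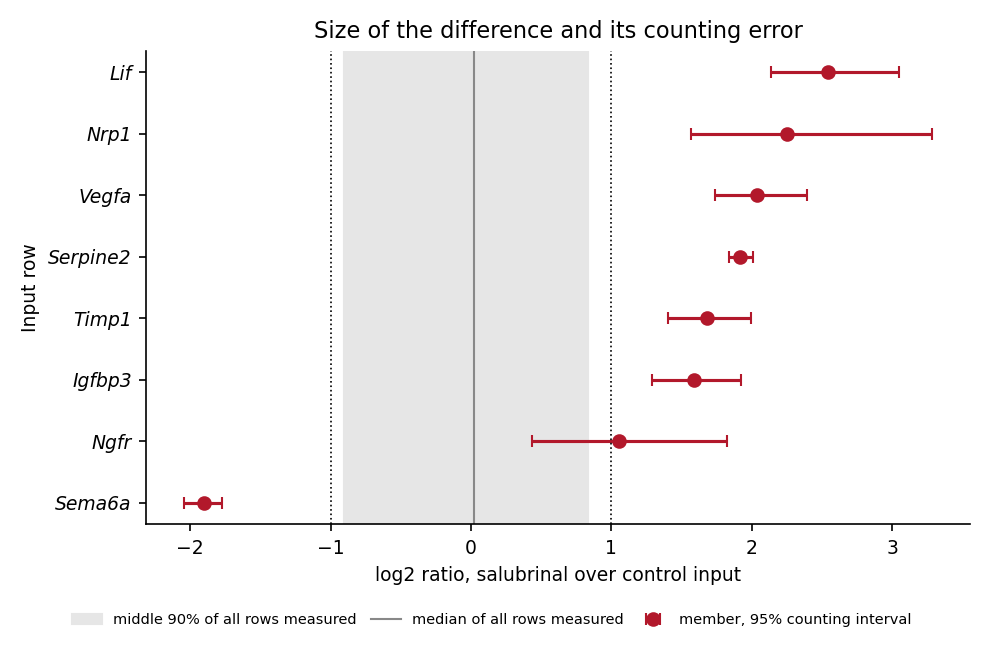
Log2 ratio of salubrinal over control input for the 8 measured genes, with exact 95% intervals for counting error; dotted lines mark 2-fold, and the grey band holds the middle 90% of all 10614 rows, from -0.90 to 0.83. The Ngfr interval enters the band and the other 7 do not.

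By size of ratio the order was Lif, Nrp1, Vegfa, Serpine2, Timp1, Igfbp3 and Ngfr, then Sema6a. The intervals of all neighbours in this order overlap except those of Ngfr and Sema6a. Pooled over the 8 lists, 162 of 166 genes had an input row under the name used, and 85 were measured. Of these 85, 2 passed 2-fold upward and 6 downward, or 2.35% and 7.06%, against 2.75% and 3.8% of all measured rows. The median of the 85 was -0.07. Total-count scaling moved the median of all rows to 0.95, and Sema6a then stood at -0.96, less than 2-fold lower. Relative to the median of all rows in the same setting its ratio was between -1.93 and -1.91 under each of the 7 scalings and prior counts.

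**Figure D3:**
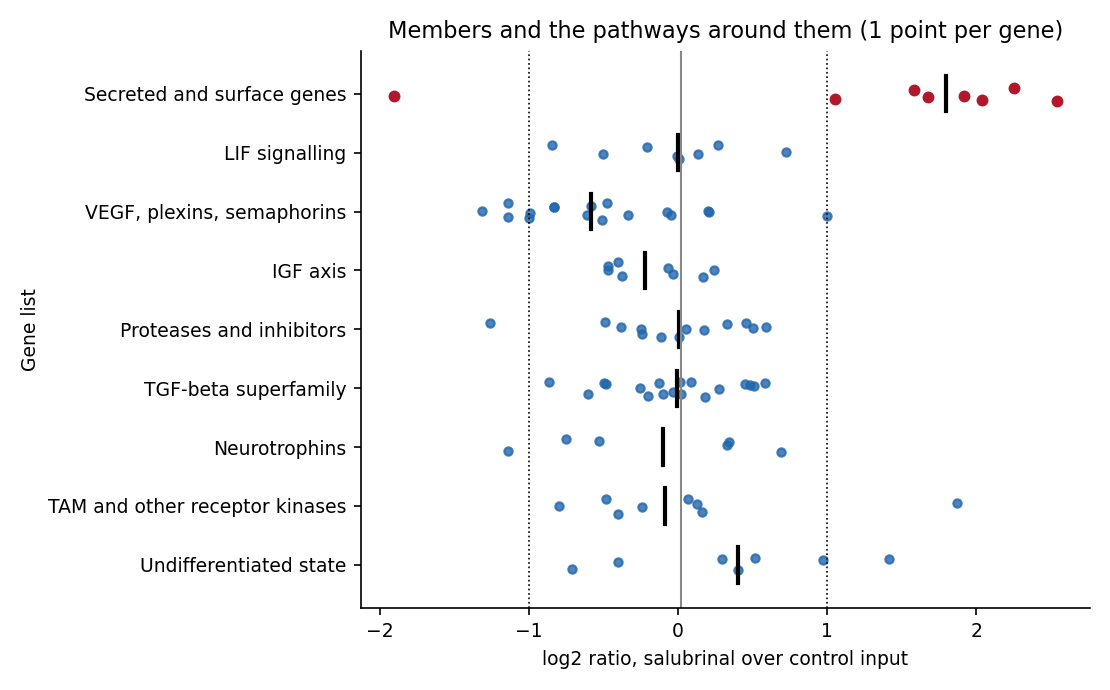
Log2 ratio of salubrinal over control input for the measured genes (red) and for the measured genes of 8 related lists (blue), 1 point per gene, with black bars at list medians, a grey line at the median of all rows and dotted lines at 2-fold. List medians lie between -0.59 and 0.40, against 1.80 for the red points. The red genes were chosen partly on this contrast, so nothing is read from the gap.

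The closest other rows in level over the 2 input libraries, by distance in log2 CPM, were found for 3 genes. These had the largest ratios among those with at least 200 counts. The search covered 6000 rows with at least 200 counts, leaving out the 10 genes themselves and names of the Gm or Rik kind. Igfbp3 and Timp1, left out in this way, lie nearer to Vegfa than the rows given for it. For Lif they were Aldh1l2 (0.258), Fam129a (0.303) and Ddit3 (0.325). For Vegfa they were Map1b (0.386), Snrpb2 (0.480) and Sec24d (0.563), and for Serpine2 Atf4 (0.276), Rny3 (0.413) and Prnp (0.544). These distances use CPM with no length scaling and describe closeness in the count tables only.

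The ribosome fractions were not used to choose the genes, but they hold few counts on them. The ribosomal RNA row RNA28S5 took 92.4 to 98.3% of gene-row counts, and 864 to 23679 counts per file lay outside rRNA rows. Over rows outside rRNA with at least 10 counts, the 4 fraction files of a replicate differed by no more than sampling noise. The chi-square per degree of freedom was 0.937 to 1.03 in 6 sets once the control 40S files titled 1 and 2 were exchanged. As titled, the values for control replicates 1 and 2 were 1.23 and 1.47. The rRNA rows were left out of this test. RNA28S5 took 97.5% of gene-row counts in the 40S file and 97.0% in the polysome file of salubrinal replicate 1. In salubrinal replicate 3 it took 94.9% in both. The 4 fractions of a replicate may be 1 library deposited several times, which was not tested over whole files. A result in one fraction is therefore not taken as a repeat of a result in another. The labels do not say that replicates came from separate cultures, so p-values measure only the spread between these files, which may be technical.

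All 10 genes together had 5 counts in the 12 salubrinal fraction files and 9 in the 12 control files. AXL had 2 and 5, VEGFA 2 and 1, LIF 1 and 0, and GDF15, SERPINE2 and SEMA6A each 0 and 1. IGFBP3, TIMP1, NRP1 and NGFR had 0 in all files. Outside rRNA and mitochondrial rows the 10 genes had a CPM, here over those counts alone, of 60.0 (19.5 to 140) in salubrinal fractions and 45.5 (20.8 to 86.4) in control fractions, against 1692 and 832 in the inputs. SERPINE2 had 0 of 83379 such counts in salubrinal fractions, which allows up to 36.0 CPM, where the salubrinal input had 1233 CPM. AXL went the other way: it had 24.0 CPM (2.90 to 86.6) in salubrinal fractions and 25.3 CPM (8.21 to 59.0) in control fractions, against 0 and 0.529 CPM in the inputs, on 7 and 2 counts in all. These shares come from different gene tables and were not tested against each other. Their intervals cover counting error over the pooled files, not the spread between libraries. Of the 86990 salubrinal fraction counts outside rRNA rows, 73158 came from the files of replicate 3. No gene passed the low-count filter of edgeR in a fraction, where 3.73% of 241 polysome rows, 12.7% of 213 80S rows, 9.83% of 234 60S rows and 8.0% of 225 40S rows were called at an adjusted p under 0.05. These shares depend on the scaling. With library sizes alone 0 rows were called in each fraction, and with RLE size factors, another scaling, more were called than with TMM. Without the filter 3, 2, 2 and 3 of the genes could be tested in polysome, 80S, 60S and 40S files, and edgeR called 0, with 0 at an unadjusted p under 0.05; DESeq2 gave 0 for both as well. The share of all rows called without the filter was 0.0% in polysome, 80S and 60S files and 0.0166% in 40S files. A difference in ribosome association was not detectable at this depth.

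Among 13 genes that overlap 8 of the 10 in RefSeq, 4 have a row in the fraction files. MIR3189 in GDF15 and RN7SL398P in NRP1 had 0 counts, and SYN1 over TIMP1 had 1 in salubrinal and 3 in control files. The row CTB-118N6.3, a synonym of SEMA6A-AS1 on the strand opposite SEMA6A, had 10 counts in salubrinal and 90 in control files. With the 4 files of a library summed, and the control 40S files titled 1 and 2 exchanged as above, the salubrinal libraries had 0, 2 and 8 counts and the control libraries 47, 8 and 35. As CPM over counts outside rRNA these were 0, 535.6 and 109 in salubrinal and 545.7, 356 and 374 in control libraries, or 215 ± 283 and 425 ± 105 (SD, n = 3 each). The groups overlap through salubrinal library 2, which had 3734 counts in all outside rRNA, and an exact two-sided permutation test gave p = 0.3, where 0.1 is the smallest possible. With the files as titled, control libraries 1 and 2 had 39 and 16 counts, and the exact permutation test again gave p = 0.3.

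With all 6 libraries, the antisense row passed the filter in none of the single fractions, nor in the summed files with all rows; it passed in some single-fraction fits that left a library out, where the lowest edgeR adjusted p was 0.0621. In the summed files with all rows and no filter, its log2 fold change was -1.75 (edgeR adjusted p = 0.634). The summed files, and every further setting for them, were added after its counts were seen. The settings for them were revised once after a first set of fits. With rRNA rows removed and the filter kept, the fold change was -1.68 (edgeR adjusted p = 0.0194; 4.62% of 736 rows were called lower). That call was lost with the replicate number as a block (adjusted p = 0.135, edgeR), without salubrinal library 1 (0.119), without salubrinal library 3 (0.636), with no filter (0.632) and with DESeq2. Without control library 1, which held 47 of the 90 control counts, the row did not pass the filter and was not tested. In all, 8 of 14 edgeR or DESeq2 fits of summed files called the row and 0 of 16 single-fraction fits did; these fits share the same counts, and the row was picked out among them, so no call is drawn from them. No source used here gives the strand setting of the counting, so reads of SEMA6A and of its antisense partner cannot be told apart, nor can those of LIF and NGFR from the antisense genes that RefSeq lists over them.

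**Figure D4:**
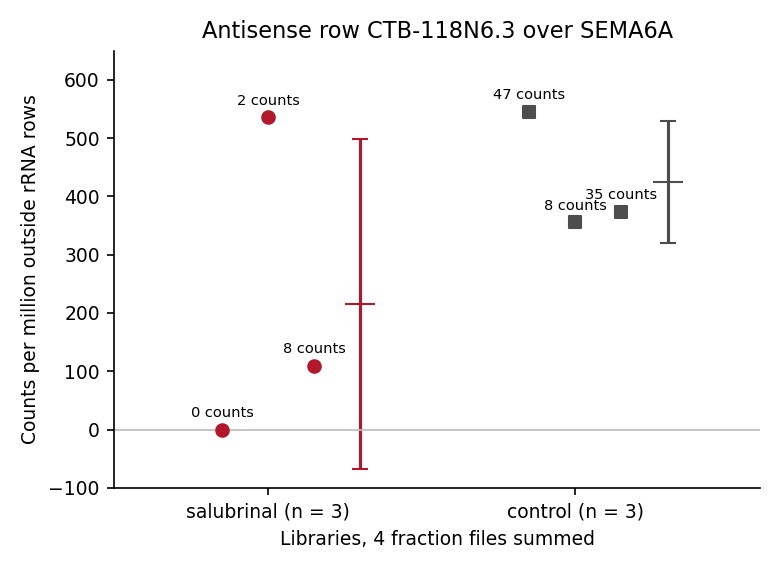
Level of the antisense row CTB-118N6.3 as CPM over counts outside rRNA rows, for 3 salubrinal and 3 control libraries with 4 fraction files summed and the control 40S files titled 1 and 2 exchanged; points are libraries labelled with their counts, and bars are mean ± SD. The salubrinal point at 535.6 rests on 2 counts and lies within the control range.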

How the data were processed

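The submitters' processing notes list HTSeq 0.5.3p3 for counting, STAR, DESeq, SAMtools 0.1.19.24 and FastQC 0.11.5, and hg19 is named; libraries were stranded total RNA per the labels' protocols. The authors deposited raw read counts per gene row, 1 table per sample. Fraction files held 6627394 to 12984883 reads, 4.72 to 5.79% of them on gene rows; rows that name no gene (in salubrinal and control input 27.3% and 14.4% not aligned) entered neither library sizes nor tests. The genes and the lists around them were chosen with earlier results of these data known. Input log2 ratios used TMM factors and a prior count of 2, over rows with at least 50 counts; at least 2-fold counts as called. Intervals are exact (conditional binomial for ratios, Clopper-Pearson for shares), and a count of 0 is bounded at 3 counts. Fraction counts were tested per fraction with edgeR 4.0.16 quasi-likelihood (filterByExpr, TMM, robust) and Benjamini-Hochberg adjustment at 0.05 over all rows tested, with DESeq2 1.42.0 as an alternative, in R 4.3.3.

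The edgeR procedure was tested on simulated polysome counts. All simulated libraries shared the pooled profile of the real files and a fixed dispersion, so they lack the differences in composition between those files. The rates below hold for that setting and were not measured on the real files. With 1 in 3 of the better counted genes changed, 69 of 72 changed genes were recovered with 12 false calls among 216 genes. With 1 in 10 changed, 35 of 37 were recovered with 1 false call among 204. Since 37 of 204 is more than 1 in 10, the 204 are not all the genes open to change. How many changed genes went uncounted is not given, so recovery holds only for the genes counted here. The second simulation was added after the first had been seen, so false calls may exceed the nominal rate where many genes change. Named genes are all 10, rows of genes overlapping them, the 2 highest and 2 lowest measured genes of each list, and the nearest rows of 3 genes. Genes described beyond that were chosen after their values were seen: Lifr, Kdr, Flt1, Mlana, Tyrp1, CT010467.1 and mt-Rnr2.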

Additional observations from a re-analysis of the deposited data

How the results depend on the processing

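Across 6 other scalings and prior counts all 48 ratios of the 8 measured genes kept their sign. Ngfr fell under 2-fold with rRNA, mitochondrial and CT010467.1 rows removed (0.98) and with a prior count of 5 (0.99). Under total-count scaling, which moved the median of all rows to 0.95, 0 of the genes were at least 2-fold lower, against 1 with TMM. Of the genes in the related lists, 31 were then at least 2-fold higher and 0 lower, against 2 and 6 with TMM. The count higher was 4 with rows of at least 10 counts, 1 with at least 200 counts and 8 at 1.5-fold, where 17 were lower. No share of all rows is given for total-count scaling or these settings, so the list counts are not set against a background. Under total-count scaling the median of all rows itself lay just under the 2-fold line. In the fractions, 0 of the 10 genes were called under each of 12 alternatives per fraction, 48 in all, including the fit with the replicate number as a block (0) and leaving out each replicate (0 to 0). These counts of 0 say nothing about stability, since at most 3 of the genes could be tested. The antisense row CTB-118N6.3 had a negative log2 fold change in all 30 fits that tested it, from -5.93 to -0.17. Its edgeR or DESeq2 adjusted p-values ran from 0.00337 to 0.636 in summed and 0.0621 to 0.999 in single-fraction files. All 30 fits reuse the same counts, seen before the summed fits were added, so the shared sign says nothing about stability. The labels state no pairing by replicate number. Same-numbered salubrinal and control files had deviations correlated at 0.348 to 0.553 in 7 of 12 pairs, those of replicate 3 and of replicate 2 outside 40S. The correlations were -0.0448 to 0.0159 for replicate 1 and -0.288 for replicate 2 in 40S, so not every pair exceeded 0.1. The pairs follow the titled numbers. The control 40S files titled 1 and 2 matched their replicates only once exchanged, so their 40S values may compare mismatched libraries. Replicate 1 did not exceed 0.1 outside 40S either. As the 4 fractions of a replicate may be 1 library, the 12 pairs are not separate checks. Depth limits what the fractions can show for these genes, and the input has 1 library per treatment.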
